A study of Homo sapiens with 9 samples.

Results

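Aminoacyl-tRNA synthetases were followed in PANC-1 cells, an established human line of pancreatic carcinoma, exposed to the small molecule BRD7552. The list held 35 synthetase genes, 19 of cytosolic enzymes and 16 of mitochondrial enzymes, of 19775 genes named on the array. Each gene was read from the probe set of that symbol with the highest mean, and 32 of the 35 had one (17 cytosolic, 15 mitochondrial). MARS1, QARS1 and TARS2 share their probe sets with a second symbol and were not analysed here. All 32 lay above the filter on low values (mean linear signal 17.8), which kept 12678 genes in all.

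The arrays fell into 3 groups of 3. Cells carried 5 uM BRD7552 for 72 h, 5 uM BRD7552 for 6 h, or DMSO, the solvent, with no time of exposure stated. By the study's design text, that dose was the lowest to induce Pdx1, a pancreatic transcription factor, maximally. Nothing in the labels states that the replicates were cultured separately, so a p-value here reflects the spread among these 9 arrays, which may be technical, and time in culture and exposure cannot be told apart. Every value comes from 1 cell line.

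A synthetase joins an amino acid to its tRNA before the ribosome can use it. For most amino acids, 1 nuclear gene encodes the enzyme of the cytosol and another that of the mitochondrion, while GARS1 (glycine) and KARS1 (lysine) serve both compartments. Uncharged tRNA activates the kinase GCN2, which leads through eIF2 phosphorylation to translation of ATF4, and ATF4 is known to activate several cytosolic synthetase genes. Part of the cytosolic enzymes sit in a multisynthetase complex held by scaffold proteins such as AIMP1.

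The median signal of an array was 16.2 to 18.8, and the upper quartile was 97.5 to 117 on 72 h arrays, 112 to 119 on 6 h arrays and 114 to 117 on DMSO arrays. ACTB control probes gave a 3' over 5' signal ratio, a measure of RNA integrity, of 2.07 to 2.21 on 72 h arrays and 1.91 to 2.01 on DMSO arrays. All 7 ductal epithelial markers lay above the filter, with a summed signal of 27466 to 29335 on 72 h arrays and 34306 to 35159 on DMSO arrays. All 3 islet and all 4 leukocyte markers measured lay below it, as did 2 of 3 acinar, 3 of 4 endothelial and 3 of 5 fibroblast markers. The part of these differences in the results was not tested. In such bulk samples fewer cells of a type and less RNA per cell cannot be told apart.

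After 72 h of BRD7552, most cytosolic synthetases rose, while the counts of mitochondrial synthetases that rose or fell were not far from the shares of all genes. A gene was called at a limma adjusted p below 0.05, with the adjustment over all 12678 genes. In simulated data with known answers, false calls exceeded the nominal share in comparisons with 72 h arrays. Of 17 cytosolic enzymes 10 rose, 1 fell and 6 did not pass, where 26.6% of all genes were called, 8.33% as higher and 18.3% as lower. Of 15 mitochondrial enzymes 0 rose, 4 fell and 11 did not pass, and 7 had an unadjusted p under 0.05, as did 36.9% of all genes. The median log2 change was 0.28 for the cytosolic and -0.19 for the mitochondrial enzymes, beside -0.062 over all genes. Arrays of the groups did not overlap for 10 cytosolic enzymes that were higher and 4 that were lower, and for 1 mitochondrial enzyme that was higher and 6 that were lower, where 12% of all genes were higher without overlap and 24.9% lower.

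**Figure D1:**
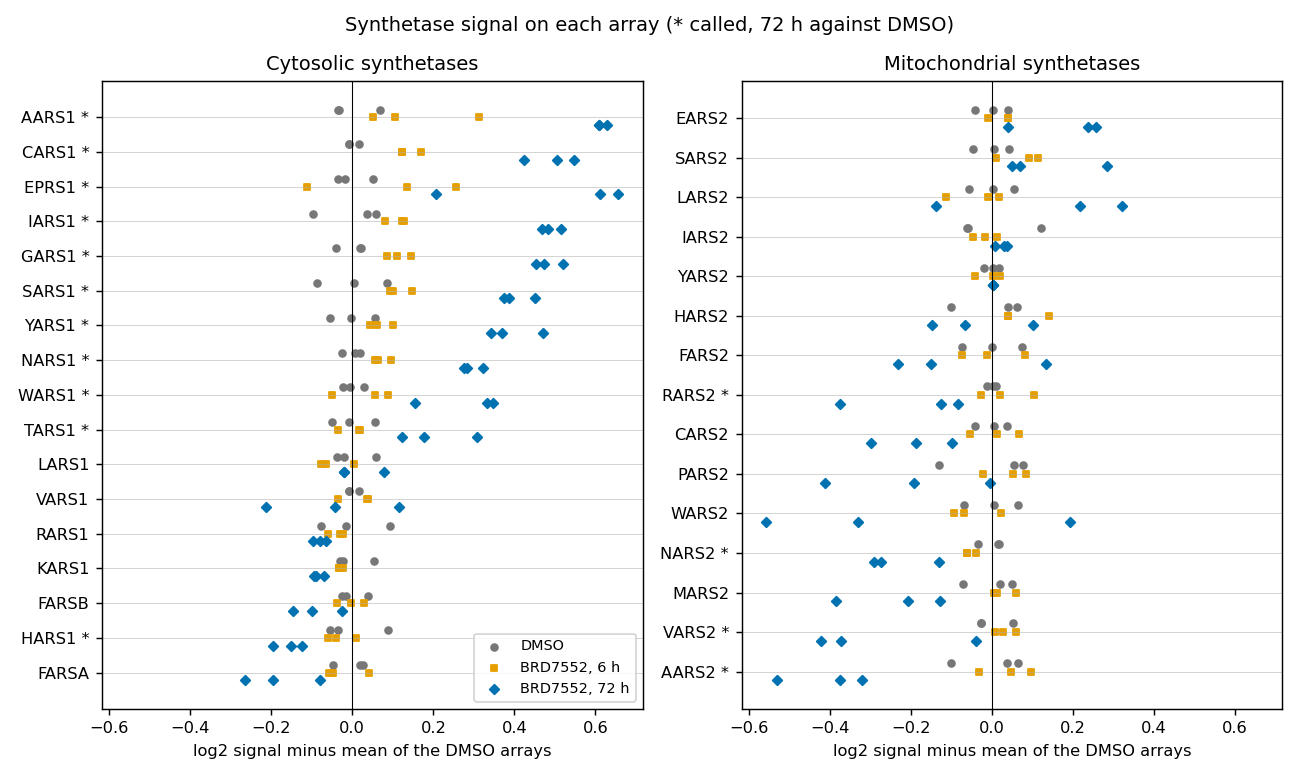
Signal of each of 32 synthetase genes on each of 9 arrays, on the x axis as log2 signal minus the mean of the DMSO arrays, cytosolic enzymes on the left and mitochondrial enzymes on the right, ordered by the 72 h change. Points are single arrays (DMSO, 6 h, 72 h), and a star marks a gene called at 72 h against DMSO. The 72 h points of 10 cytosolic enzymes lie to the right of all their DMSO points.

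AARS1, the alanine enzyme, had the largest rise. Its signal was 872, 859.8 and 861 on the 72 h arrays, against 592, 550.1 and 551 on the DMSO arrays. The groups lay far apart, and the rise was 1.53-fold (log2 0.62 ± 0.065, SE, n = 3 arrays per group, limma adjusted p = 6.68e-06). CARS1, the cysteine enzyme, measured 4223, 4602 and 4464 at 72 h, against 3183, 3131 and 3128 in DMSO. Each treated array was above each DMSO array, for a rise of 1.41-fold (log2 0.49 ± 0.037, limma adjusted p = 2.57e-07).

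GARS1 makes glycyl-tRNA for both compartments. It measured 7996, 7737 and 7638 at 72 h, against 5647, 5427 and 5659 in DMSO. The rise was 1.40-fold (log2 0.48 ± 0.033, limma adjusted p = 9.17e-08), the lowest adjusted p of the family. The other enzyme of both compartments, KARS1, stood on the other side. Its signal of 6790.5, 6807 and 6908 at 72 h lay below 7517, 7089 and 7136 in DMSO without overlap, but the log2 change of -0.084 ± 0.031 did not pass (limma adjusted p = 0.0603). A second KARS1 probe set stood at -0.17 and passed when adjusted over all probe sets (limma adjusted p = 0.0423).

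SARS1, the serine enzyme, measured 1553, 1639 and 1568 at 72 h, against 1202, 1128 and 1271 in DMSO, a rise of 1.32-fold (log2 0.40 ± 0.048). YARS1, the tyrosine enzyme, had 1683, 1716 and 1839 at 72 h, against 1325, 1279 and 1381 in DMSO, and rose 1.31-fold (log2 0.39 ± 0.046). Neither pair of groups overlapped. NARS1, the asparagine enzyme, rose 1.23-fold (log2 0.29 ± 0.033), with 4058 to 4188 at 72 h and 3293 to 3393 in DMSO.

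The 2 smallest rises were those of WARS1 and TARS1. WARS1, the tryptophan enzyme, which interferon gamma is known to induce, had 849, 858 and 751 at 72 h, against 665, 672 and 688 in DMSO. The third of its 72 h arrays stood closest to the DMSO arrays, and it rose by 0.28 ± 0.060 on the log2 scale (limma adjusted p = 0.00301). TARS1, the threonine enzyme, had 3058, 2793 and 2687 at 72 h, against 2386, 2568 and 2456 in DMSO, and rose 1.15-fold (log2 0.20 ± 0.047, limma adjusted p = 0.00510). With the probe sets of a gene averaged TARS1 stood at -0.024 and did not pass. Its second probe set, dim at a mean signal of 13.6, stood at -0.25 and did not pass.

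Within the multisynthetase complex the members differed. IARS1, the isoleucine enzyme, had 3108, 3077 and 3174 at 72 h, against 2078, 2280.5 and 2316 in DMSO, and rose 1.40-fold (log2 0.49 ± 0.043, limma adjusted p = 1.10e-06). EPRS1, a fused enzyme for glutamate and proline, had 3800.3, 2784 and 3683 at 72 h, against 2499.85, 2353 and 2384 in DMSO. The second 72 h array was the low one, and the rise was 1.41-fold (log2 0.49 ± 0.099, limma adjusted p = 0.00193).

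The other measured complex members did not pass. LARS1, the leucine enzyme that also serves as a leucine sensor for mTORC1, had 1149, 1231 and 1149 at 72 h, against 1149, 1215 and 1135 in DMSO. The groups overlapped, and the 95% interval of the ratio to DMSO was 0.940 to 1.08. Another LARS1 probe set stood at 0.22 and passed when adjusted over all probe sets (limma adjusted p = 0.0486). RARS1, the arginine enzyme, stood at -0.081 ± 0.043 on the log2 scale. The complex held 2 risen genes of 5 measured and 7 listed, with a median log2 change of 0.012. The enzymes outside it held 8 of 12, with a median of 0.29, where 8.33% of all genes rose. The scaffold gene AIMP1 fell by 0.17 on the log2 scale (SE 0.041, limma adjusted p = 0.00566), a call that ended with arrays centred on their medians and with probe sets averaged. AIMP1 was the 1 scaffold gene measured of 3 listed.

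The 2 structural classes of synthetases, which differ in the fold of the active site, both held genes that rose. In the cytosol 5 of 8 class I enzymes and 5 of 9 class II enzymes rose, with median log2 changes of 0.34 and 0.20, where 8.33% of all genes rose. The fused EPRS1 holds an enzyme of each class and was counted in class I only. The class II enzymes also held HARS1, the 1 cytosolic gene that fell. Class I includes VARS1, the valine enzyme, at -0.046 ± 0.070, whose 72 h arrays of 530, 666 and 597 spread around the DMSO values of 611, 611 and 621.

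FARSA and FARSB encode the 2 subunits of the phenylalanine enzyme of the cytosol. FARSA had 243, 232 and 264 at 72 h, against 284, 283 and 269.9 in DMSO, and FARSB 1456, 1531 and 1408 against 1532, 1602 and 1543. Both were lower on each 72 h array than on any DMSO array, yet neither log2 change passed (-0.18 ± 0.074 for FARSA and -0.091 ± 0.043 for FARSB, limma adjusted p = 0.0856 and 0.143). A second FARSA probe set stood at -0.42 and passed when adjusted over all probe sets (limma adjusted p = 0.0149).

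The promoters of the risen genes are shown for a motif that ATF4 dimers are known to bind. TGATGNAA was searched on both strands of 300 bases around each start site, 250 before and 50 after it, in RefSeq promoter windows of GRCh38.p14, and no other motif was searched. It occurs in 3.62% of 35116 windows and in 4.46% of 27305 genes with a window. Of the synthetases that rose at 72 h, 9 have a window and 6 hold a match: AARS1, CARS1, IARS1, GARS1, NARS1 and TARS1. Of the 5 other measured cytosolic genes with a window 0 hold one, nor do any of 3 synthetases that fell. In the mitochondrial set 1 of 14 has a match, YARS2. MARS1, which was not analysed here on the arrays, also has one, and no window was given for 5 of the 35 genes. EPRS1, SARS1 and WARS1 rose without a match in these windows, and a match is a description, not a binding site.

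The stretches holding the match are given for the 4 matched genes with the largest rises, with the match in capitals, read 5′ to 3′ on the strand of the gene and ending before the start site or, for CARS1, at the end of the match. CARS1 and GARS1 each have another window, at a different start site, without a match. In AARS1, CARS1 and IARS1 the 8 letters are identical, and GARS1 differs at the N of the motif.
AARS1 (chr16:70289646-70289733, minus strand): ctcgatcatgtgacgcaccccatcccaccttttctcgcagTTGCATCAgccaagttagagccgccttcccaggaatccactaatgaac
CARS1 (chr11:3057418-3057505, minus strand): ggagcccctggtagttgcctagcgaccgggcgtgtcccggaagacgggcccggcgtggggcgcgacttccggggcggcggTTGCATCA
IARS1 (chr9:92293698-92293785, minus strand): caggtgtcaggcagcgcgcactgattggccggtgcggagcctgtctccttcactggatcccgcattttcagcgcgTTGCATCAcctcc
GARS1 (chr7:30594790-30594877, plus strand): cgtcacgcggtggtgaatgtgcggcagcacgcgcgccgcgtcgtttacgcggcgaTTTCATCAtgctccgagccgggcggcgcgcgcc

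In AARS1 the match begins at position -187, counted in bases from the start site. In GARS1, IARS1 and CARS1 it begins at -33, -13 and -2, and in TARS1 and NARS1 at 2 and 14. The match of YARS2 begins at -197, and YARS2 stood at 0.0027 ± 0.050 on the log2 scale.

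**Figure D2:**
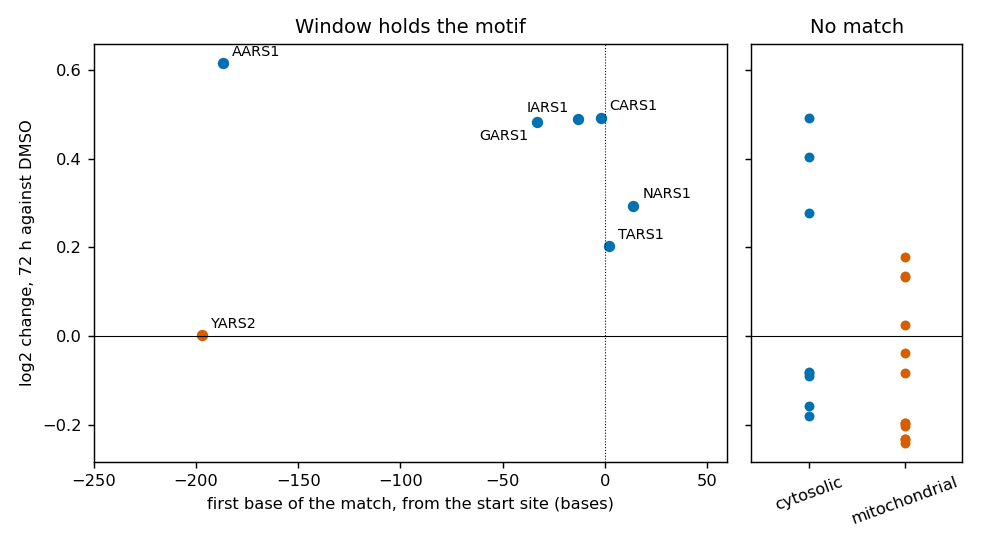
Log2 change at 72 h against DMSO (y axis) by position of the motif match. Left, the first base of the match in bases from the start site; right, measured synthetases whose windows hold no match, with cytosolic genes in blue and mitochondrial genes in orange. The 6 cytosolic genes with a match lie between 0.20 and 0.62, and cytosolic genes without one lie on both sides of 0.

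HARS1 and HARS2, the cytosolic and mitochondrial enzymes for histidine, are transcribed away from each other on chromosome 5, and 84 bases separate their start sites. The whole stretch between them is shown as it is the promoter both genes share, read 5′ to 3′ on the strand of HARS2, with no match to the motif.
HARS1-HARS2 (chr5:140691371-140691454, plus strand): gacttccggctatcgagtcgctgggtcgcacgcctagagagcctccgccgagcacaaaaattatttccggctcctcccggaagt

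HARS1 measured 944, 927 and 898 at 72 h, against 1005, 991 and 1095 in DMSO. It fell by 0.16 on the log2 scale (SE 0.049, limma adjusted p = 0.0283), and this call ended under 7 of 20 alternatives, among them median centring, cyclic loess and leaving out the third DMSO array or the second or the third 72 h array. HARS2 had 731, 615 and 650.5 at 72 h, against 711, 636 and 700.3 in DMSO, and the groups overlapped. Its log2 change was -0.038 ± 0.067, and the change of the HARS1 to HARS2 ratio, -0.12, was within the spread of the arrays (two-sided exact permutation p = 0.2, n = 3 arrays per group).

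Of the mitochondrial enzymes, AARS2, which charges tRNA with alanine, fell furthest. It measured 87.6, 75.7 and 84.3 at 72 h, against 114, 102 and 112 in DMSO, and fell by 0.41 on the log2 scale (SE 0.11, limma adjusted p = 0.00961). At its second probe set AARS2 was at -0.18, which did not pass. VARS2, the valine enzyme, had 392, 301 and 311 at 72 h, against 417, 395 and 395 in DMSO, a fall of 0.28 on the log2 scale (SE 0.085, limma adjusted p = 0.0256).

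NARS2, the asparagine enzyme, had 638, 577 and 571 at 72 h, against 707, 705 and 682 in DMSO, and fell by 0.23 on the log2 scale (SE 0.054, limma adjusted p = 0.00522). RARS2, the arginine enzyme, had 683, 663 and 558 at 72 h, against 718, 729 and 725 in DMSO, and fell by 0.19 (SE 0.068, limma adjusted p = 0.0471). For each of the 4 genes the first 72 h array was the one nearest to DMSO. The falls were less firm than the cytosolic rises under other settings. The call ended for RARS2 under 15 of 20 alternatives, for VARS2 under 7 of 20, for AARS2 under 2 of 19 and for NARS2 under 1 of 20. With arrays centred on their medians 1 of the 4 falls passed, that of AARS2.

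The other mitochondrial enzymes did not pass. EARS2 (glutamate), SARS2 (serine) and LARS2 (leucine) stood above 0, at 0.18 ± 0.070, 0.13 ± 0.068 and 0.13 ± 0.10 on the log2 scale. CARS2 (cysteine) and MARS2 (methionine) were lower on each 72 h array than on any DMSO array, at -0.20 ± 0.077 and -0.24 ± 0.11. WARS2 (tryptophan) had 125, 74.0 and 86.6 at 72 h, against 109, 114 and 104 in DMSO, so that its 72 h arrays lay on both sides. IARS2 (isoleucine) stood at 0.025 ± 0.046, with a 95% interval of 0.951 to 1.09 for the ratio to DMSO. EARS2 passed as higher after quantile normalization, after cyclic loess and without the third 72 h array, and LARS2 without that array. Other EARS2 probe sets above the filter stood at -0.27, 0.15 and 0.090, and none of them passed.

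The set means of single arrays separated the 2 compartments. On the 72 h arrays the mean log2 signal of the 17 cytosolic enzymes, less their DMSO mean, was 0.21, 0.21 and 0.20. For the 15 mitochondrial enzymes it was 0.019, -0.14 and -0.20, and for all genes tested 0.0080, -0.16 and -0.083. The mitochondrial mean and the mean of all genes were thus both near 0 on the first 72 h array and below it on the others, while the cytosolic mean hardly differed between the 3 arrays. The cytosolic mean less the mitochondrial one was 0.19, 0.35 and 0.41 on 72 h arrays and between -0.029 and 0.018 on DMSO arrays. The part of these array differences in the mitochondrial falls was not tested. Without the first 72 h array 7 mitochondrial enzymes fell, and without the second or the third 2 fell. Of all 12678 genes 3297, 1791 and 1850 fell in these settings, in that order, beside 2322 with all arrays. Without the first DMSO array 1 mitochondrial enzyme fell, and without the second or the third 2 fell, where 1722, 1718 and 1577 of all genes did. In each of these cases 10 cytosolic enzymes rose, where 717 to 1054 of all genes did.

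**Figure D3:**
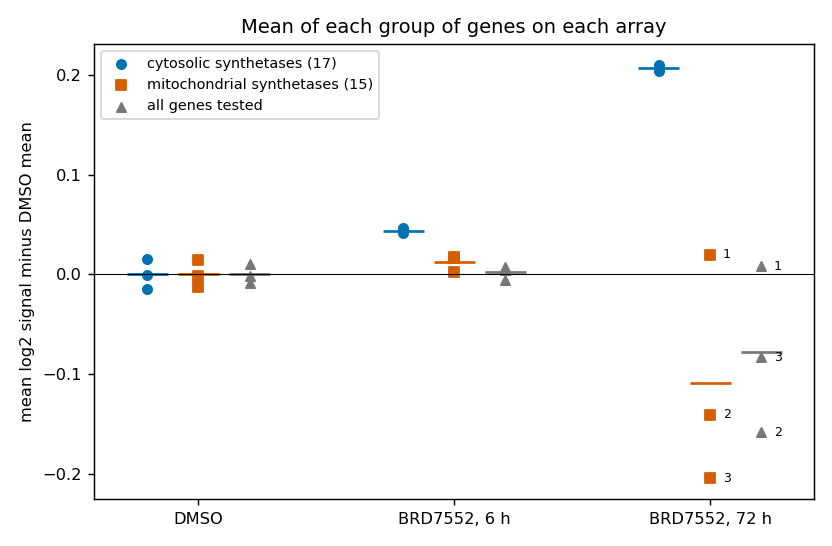
Mean log2 signal minus the DMSO mean (y axis) on each array, by treatment (x axis), for 17 cytosolic synthetases, 15 mitochondrial synthetases and all genes tested. Points are arrays, short lines are group means, and digits beside 72 h points are replicate numbers. At 72 h the cytosolic points lie at 0.20 to 0.21 and the mitochondrial points between -0.20 and 0.019.

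**Figure D4:**
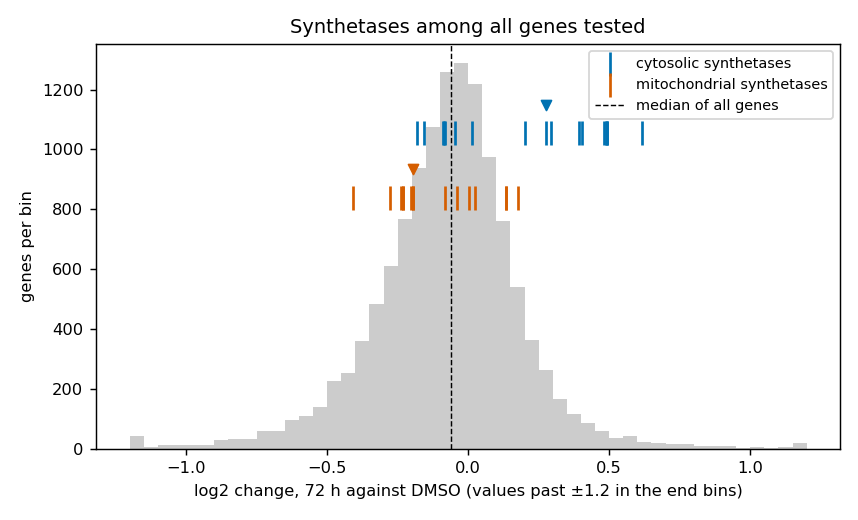
Histogram of the log2 change at 72 h against DMSO over all 12678 genes (x axis, genes per bin on the y axis), with the values of the cytosolic and mitochondrial synthetases as vertical ticks and their medians as triangles; changes beyond the axis ends are counted in the end bins. The cytosolic median lies at 0.28, the mitochondrial one at -0.19 and the dashed line, the median of all genes, at -0.062.

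Partners for the same amino acid were compared within arrays, where a factor common to all genes of an array cancels. An array difference that varies with signal does not. For 15 pairs over 14 amino acids the log2 ratio of the cytosolic to the mitochondrial gene was set against its value in DMSO. At 72 h the ratio was higher than in DMSO in 11 pairs, and without overlap of arrays in 8, while it was lower without overlap in 0. No other gene pairs were taken for comparison, and of single genes 12% were higher without overlap and 24.9% lower. In each of the 8 pairs the cytosolic gene is one that rose, so the count draws on the same values as those calls. The largest shift was that of alanine. The AARS1 to AARS2 log2 ratio was 0.95 to 1.14 on 72 h arrays and -0.069 to 0.064 on DMSO arrays, each less the DMSO mean, a difference of 1.02.

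For cysteine the difference was 0.69 for CARS1 over CARS2, and for asparagine 0.53 for NARS1 over NARS2. Of the mitochondrial partners in the 8 pairs without overlap AARS2 and NARS2 fell, and the others did not pass. For isoleucine and tyrosine it was 0.46 for IARS1 over IARS2 and 0.39 for YARS1 over YARS2. Tryptophan stood at 0.51, serine at 0.27 and EPRS1 over PARS2, the proline pair, at 0.69. EPRS1 over EARS2, the glutamate pair, overlapped with DMSO at a difference of 0.31. Valine, arginine, leucine, histidine and both phenylalanine pairs overlapped too, with differences between -0.12 and 0.23. The exact permutation p was 0.1 for each of the 8 pairs, the smallest that 3 arrays against 3 allow, and 0.1875 adjusted over the 15 pairs.

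**Figure D5:**
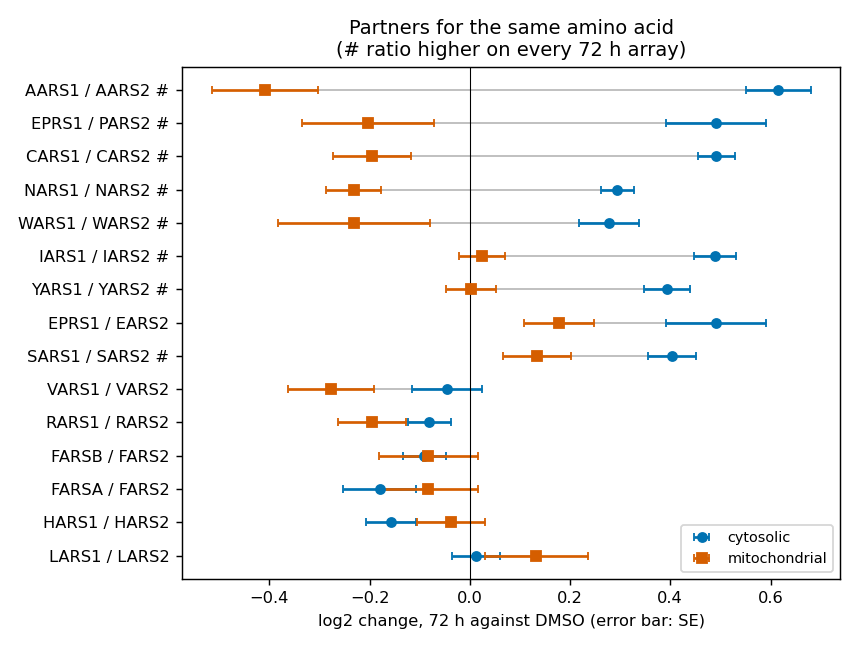
Log2 change at 72 h against DMSO (x axis, error bars are SE) for cytosolic and mitochondrial enzymes of the same amino acid, 1 pair per row, ordered by the difference. The 8 pairs marked # have a ratio that is higher on every 72 h array than on any DMSO array, and AARS1 with AARS2 is the widest, at 1.02.

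After 6 h limma called 0 synthetases in either compartment, where 0.473% of all genes were called. At an unadjusted p under 0.05 there were 6 of 17 cytosolic and 0 of 15 mitochondrial enzymes, where 4.59% of all genes had one, and with array weights CARS1 and GARS1 were called higher. CARS1 had 3543, 3427 and 3427 on the 6 h arrays, against 3183, 3131 and 3128 on the DMSO arrays, a log2 change of 0.14 ± 0.037 (limma adjusted p = 0.242). GARS1 had 5913, 6165 and 6024 at 6 h, against 5647, 5427 and 5659 in DMSO, at 0.11 ± 0.033 (limma adjusted p = 0.339). These arrays did not overlap, nor did those of IARS1, NARS1 and SARS1, so that 5 cytosolic genes were higher without overlap (6.26% of all genes were) and 0 lower. Of the mitochondrial enzymes 0 were higher and 1, NARS2, lower without overlap (5.94% of all genes were lower). Of the 15 partner pairs the ratio was higher without overlap in 3, those of cysteine, asparagine and tyrosine, and lower in 0. AARS1 had 701, 607 and 584 at 6 h, against 592, 550.1 and 551 in DMSO, with 1 high array and a log2 change of 0.16 ± 0.065.

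The median log2 change at 6 h was 0.031 for cytosolic enzymes and 0.023 for mitochondrial ones, with -0.00095 over all genes. The largest mitochondrial change at that time was 0.073, that of HARS2. The 6 h comparison and the 72 h comparison share their DMSO arrays.

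The increase between the times was tested directly. Of the 17 cytosolic enzymes 10 were higher at 72 h than at 6 h and 0 were lower, where 24% of all genes were called, 7.28% as higher and 16.7% as lower. Without overlap of arrays 9 cytosolic enzymes were higher and 4 lower, and 0 mitochondrial enzymes higher and 6 lower, where 10.7% of all genes were higher and 22.9% lower. Of the 15 partner pairs 8 had a higher ratio at 72 h than at 6 h without overlap, and 0 a lower one. These were the pairs found against DMSO, with arginine in place of tryptophan. The 10 called were the ones that rose against DMSO, a comparison that shares the 72 h arrays, so the 2 sets of calls are not independent. With probe sets averaged 7 passed, the calls of TARS1, WARS1 and YARS1 ending. Without a trend in the variance 8 passed, those of EPRS1 and TARS1 ending, and with median centring 9, that of TARS1 ending. AARS1 differed by 0.46 ± 0.065 on the log2 scale, EPRS1 by 0.40 ± 0.099, IARS1 by 0.38 ± 0.043, GARS1 by 0.37 ± 0.033 and CARS1 by 0.35 ± 0.037. For EPRS1 the arrays of the 2 times overlapped, since the second 6 h array read 2881 and the second 72 h array 2784, and the call ended without the first or the third 72 h array. Of the 15 mitochondrial enzymes 0 were higher and 4 lower, AARS2, VARS2, RARS2 and NARS2, with AARS2 lowest at -0.45 ± 0.11. Without the first 72 h array 9 mitochondrial enzymes were lower, without the third 1 was, and without the second, or without the first or the third 6 h array, 2 were. Of all genes 3193, 1631 and 1565 were lower without the first, the third and the second 72 h array. Without the first or the third 6 h array 1719 and 1511 were, beside 2114 with all arrays.

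Other probe sets of the called genes were set beside the ones used. At 72 h, 6 of the 15 called synthetases had further probe sets above the filter, 10 in all. Of these 9 had the same sign, 4 of them also passed when adjusted over all 54675 probe sets, and 0 passed in the opposite direction. By that same adjustment the probe sets used for HARS1, VARS2 and RARS2 did not pass (limma adjusted p = 0.0958, 0.0897 and 0.150). The probe sets used for the other called synthetases did. All 3 EPRS1 probe sets passed, and of 4 CARS1 probe sets 3 did, while the fourth, at a signal of 26.5, stood at -0.032. At its second probe set WARS1 was at 0.097, which did not pass. Ties between arrays affected some values. YARS2 was listed at exactly 569 on all 3 of its 72 h arrays, so that its SD there is 0.

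Genes around tRNA charging did not follow the cytosolic enzymes as a set. Of 21 tested genes of tRNA processing, export and selenocysteine, 3 rose, 8 fell and 10 did not pass at 72 h, where 8.33% of all genes rose and 18.3% fell, with a median log2 change of -0.17. POP1, a subunit of the RNase P that trims tRNA precursors, had a log2 change of -0.59 ± 0.15, and OSGEP, which modifies tRNA beside the anticodon, one of -0.49 ± 0.13, a call that ended with probe sets averaged and without the second 72 h array. SECISBP2, which serves selenocysteine insertion, rose 1.36-fold (log2 0.44 ± 0.10). Of 19 mitochondrial translation factors and tRNA enzymes 2 rose and 3 fell, with a median of -0.071. MTO1 and GTPBP3, which together modify the wobble base of mitochondrial tRNA, moved apart, MTO1 at 0.50 ± 0.053 and GTPBP3 at -0.49 ± 0.089 on the log2 scale.

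Of 75 mitochondrial ribosome proteins 1 rose, 13 fell and 61 did not pass at 72 h, with a median log2 change of -0.027, and their share of falls is close to the 18.3% of all genes. MRPL4 had the largest change at -0.41 ± 0.067. Of 26 cytosolic translation factors 1 rose, 10 fell and 15 did not pass, with a median of -0.060. Among those that fell were EIF2B5, EIF2B4 and EIF2B3, subunits of the exchange factor that reloads eIF2, at -0.37 ± 0.094, -0.34 ± 0.053 and -0.29 ± 0.062. The EIF2B5 call ended with probe sets averaged and without the third DMSO array, and that of EIF2B3 with median centring. In none of these 4 lists did limma call a gene at 6 h, where 0.473% of all genes were called. Without adjustment, 0, 1, 0 and 1 of their 21, 19, 75 and 26 genes, in the order given, had p under 0.05, where 4.59% of all genes did.

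The genes upstream and beside the synthetases in the amino acid response were also followed at both times. In the list of uncharged tRNA and eIF2 kinase signalling 2 of 16 genes rose at 6 h, where 0.363% of all genes did, ATF4 by 1.36-fold and SESN2, a leucine-binding restraint on mTORC1, by 1.96-fold. At 72 h 4 rose and 5 fell, where 8.33% of all genes rose and 18.3% fell, and the median log2 change of the list was -0.15. ATF4 stood at 1.51-fold, and PPP1R15A, which brings a phosphatase to eIF2, fell by 0.53 on the log2 scale (SE 0.11). EIF2AK1, an eIF2 kinase responsive to haem, rose 1.26-fold, though with probe sets averaged it stood at -0.21 and did not pass. Of 29 other genes known to respond to ATF4 or to amino acid shortage, which include ATF4 and SESN2, 9 rose at 6 h and 24 at 72 h, with median log2 changes of 0.25 and 0.45, against 0.031 and 0.28 for the cytosolic synthetases. At 6 h 0 of that list fell and at 72 h 2 fell, where 0.11% and 18.3% of all genes did. That list was chosen with earlier results of these data known, and its direction is no independent evidence.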

How the data were processed

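Biotin-labelled RNA was hybridised to 9 Affymetrix arrays of 54675 probe sets. The values the authors deposited are linear intensity per probe set, between 4.54 and 25052. MAS5 is named per the submitters' processing notes, and steps after it were not given. For 59.2% of probe sets at least 2 arrays held the very same value, which can make a gene's spread too small. Such ties are unusual for MAS5 values, so the method behind the deposited intensities is not settled. The number of arrays limits the precision.

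Symbols came from the platform's probe table, updated by gene identifier. 41097 probe sets had 1 symbol, 1801 several and 11777 none. Deposited intensities were log2 transformed without further scaling or pseudocount. limma 3.58.1 in R 4.3.3 (lmFit, eBayes with trend) was fitted to all 9 arrays, with Benjamini-Hochberg adjustment over 12678 genes, and checked on simulated data with known answers, where false calls exceeded the nominal share in comparisons with 72 h arrays. "Rose" and "fell" mean called genes. Partner ratios were compared by two-sided exact permutation tests.

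Members and lists were chosen with earlier results of these data known. All 35 members could be named, with per-array values for the largest changes, and from other lists up to 4 called genes per comparison. Alternatives were other scalings, filters, probe set rules, a pseudocount of 16, other limma settings, the replicate block and leaving out each array.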

Additional observations from a re-analysis of the deposited data

How the results depend on the processing

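For 9 of the 10 cytosolic rises at 72 h against DMSO the call held under all 20 alternatives, and for TARS1 under 19. With probe sets averaged TARS1 stood at -0.024 against DMSO and -0.0022 against 6 h, and EIF2AK1 at -0.21 against DMSO. Averaging takes in all probe sets of a gene, also any below the filter. The cause of these shifts was not tested, here or for the values that follow.

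At 6 h against DMSO all genes called numbered 37 with median centring, 23 with probe sets averaged, 23 without trend and 211 with array weights, which also called 2 cytosolic enzymes, beside 60. The cytosolic median was 0.071 with probe sets averaged and the mitochondrial one 0.0080 under the stricter filter. Leaving out 1 array gave 28 to 71 genes, cytosolic medians of 0.012 to 0.045 and mitochondrial medians of -0.0091 to 0.033. Partner pairs higher without overlap then numbered 3 to 6 of 15. With all arrays they numbered 3, where 6.26% of single genes were higher without overlap.

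At 72 h against DMSO median centring gave 2086 genes, beside 3378. Cytosolic falls numbered 0 with median centring, without trend and with array weights, 2 under the stricter filter and 3 with probe sets averaged. Mitochondrial rises numbered 1 after quantile normalization or cyclic loess, and falls 1 with median centring. The cytosolic median was 0.32 with median centring, 0.30 after quantile normalization and 0.19 with probe sets averaged. The mitochondrial median was -0.066 after quantile normalization, -0.063 after cyclic loess, -0.038 under the stricter filter and -0.089 with probe sets averaged. Leaving out 1 array gave 0 to 1 cytosolic falls, 0 to 2 mitochondrial rises, 1 to 7 mitochondrial falls, and medians of 0.24 to 0.30 and -0.24 to -0.068. All genes that fell then numbered 1577 to 3297, beside 2322.

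At 72 h against 6 h median centring gave 1782 genes, beside 3037. Probe sets averaged gave 2 cytosolic falls. Mitochondrial rises numbered 2 after quantile normalization or cyclic loess, and falls 1 with median centring, 2 without trend and 2 with 2 groups only. The cytosolic median was 0.25 with median centring, 0.21 after cyclic loess and 0.13 with probe sets averaged. The mitochondrial median was -0.092 after quantile normalization, -0.066 after cyclic loess and -0.081 under the stricter filter. Leaving out 1 array gave 0 to 2 mitochondrial rises, 1 to 9 mitochondrial falls, and medians of 0.21 to 0.24 and -0.23 to -0.056. All genes called lower then numbered 1438 to 3193, beside 2114.

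Of all genes called at 72 h against DMSO 68.7% were lower, with 54.3% after quantile normalization, 52.5% after cyclic loess and 60.7% with median centring. Against 6 h it was 69.6%, with 53.2% after quantile normalization and 51.8% after cyclic loess. With the replicate number as a block 3193 genes were called at 72 h against DMSO, 54 at 6 h and 2840 between the times, and of the 15 synthetase calls against DMSO that of RARS2 was lost. Same-numbered arrays correlated between -0.26 and 0.20 in their deviations from group means, and differently numbered ones between -0.32 and 0.36. With 3 arrays a group these values cannot settle whether the numbers pair the samples.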
